A study of Rattus norvegicus with 3 samples.

Results

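Proximal tubules reclaim most of what the glomerulus filters and run on mitochondrial oxidation, so substrates must cross the inner mitochondrial membrane all the time. The mitochondrial carriers of the Slc25 family, with the uncoupling proteins, are the main proteins that do this. Each carrier exchanges or imports a small set of solutes, such as ADP and ATP, phosphate, di- and tricarboxylates, amino acids, cofactors or metal ions, and links the cytosol to the TCA cycle, the respiratory chain and amino acid breakdown. A few members sit in other membranes or have no settled substrate.

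The family was taken as every probe set annotated to exactly 1 gene symbol that starts with Slc25a and a number, or to Ucp1, Ucp2 or Ucp3, with 1 gene of the pattern left out by the same rule. This gave 61 of 31099 probe sets and 42 of 14217 named genes, chosen by name and not by signal. Slc25a51 was not counted, although its 2 probe sets (means of 2108 and 1006) carried only that symbol. They were annotated to 2 gene entries each and were treated as naming several genes, so all counts leave them out. The RNA came from proximal tubules of male Sprague-Dawley rats, 7 to 8 weeks old, given 250 units of heparin and killed 30 min later. The kidneys were perfused with saline and collagenase, the cortex was digested for 20 min, and a gradient in 42.5% Percoll separated the tubules from other tissue. There were 3 preparations, each measured on 1 Affymetrix array, all in 1 group with no control and no other treatment, and the labels do not say how many animals each preparation held. P-values therefore measure only the spread between these 3 preparations, which may be technical.

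The values were linear signal intensities, and the median over non-control probe sets was 37.1, 37.4 and 34.9 on arrays 1, 2 and 3. Each gene took its probe set of highest mean signal. Its log2(signal + 16) was set against the median of the same array, and limma tested that difference from 0, with Benjamini-Hochberg adjustment over 31042 probe sets and a threshold of 0.05. Adding 16 draws low signals together, so the size and SE of a difference below the median depend on it. For Slc25a18 the difference was -1.39 log2 units, and -3.12 with 1 added instead of 16. Probe sets differ in affinity, so a call says only on which side of the array median a probe set lay, and signals of different genes are not an order of their RNA levels. The marker lists used here and below were chosen with earlier results of these data known, so their counts are not a test. Among all named genes, 59.0% were called above the array median and 29.4% below. The defining genes of the labelled tissue were above the median in 8 of 8 cases, among them Lrp2 (8550 ± 570, SD, n = 3) and Slc34a1 (9616 ± 380). Markers of the thick ascending limb were also above it in 4 of 5 cases, with summed signals of 12404, 10361 and 10976. Those of the distal tubule and collecting duct were above it in 3 of 5 cases, near the share of all named genes. In the other 2 cases they were called below, and the sums were 1604, 1476 and 1798. Endothelial markers were above the median in 3 of 3 cases, with sums of 461, 595 and 875. In these bulk preparations, cells of another type and a lower level per cell cannot be told apart, and the part of other cells in the carrier signals was not tested.

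Most of the family gave signals above the array median. Of the 42 genes, 31 (73.8%) were called above it, 6 (14.3%) below it and 5 were not called, whereas 59.0% of all named genes were called above and 29.4% below. On all 3 arrays, 32 of 42 members lay above the median, against 61.0% of all genes. The median difference from the array median was 2.12 log2 units over the members and 1.09 over all genes. The median percentile of the members' probe sets among those of all genes was 65.8 as a mean of the 3 arrays, which describes probe sets and carries their affinities. At the level of single probe sets, 43 of 61 were called above, 12 below and 6 were not called, beside 52.0% above and 34.1% below among all probe sets of 1 gene. The 6 genes called below were Slc25a18, Slc25a27, Slc25a31, Slc25a41, Slc25a53 and Ucp1.

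**Figure D1:**
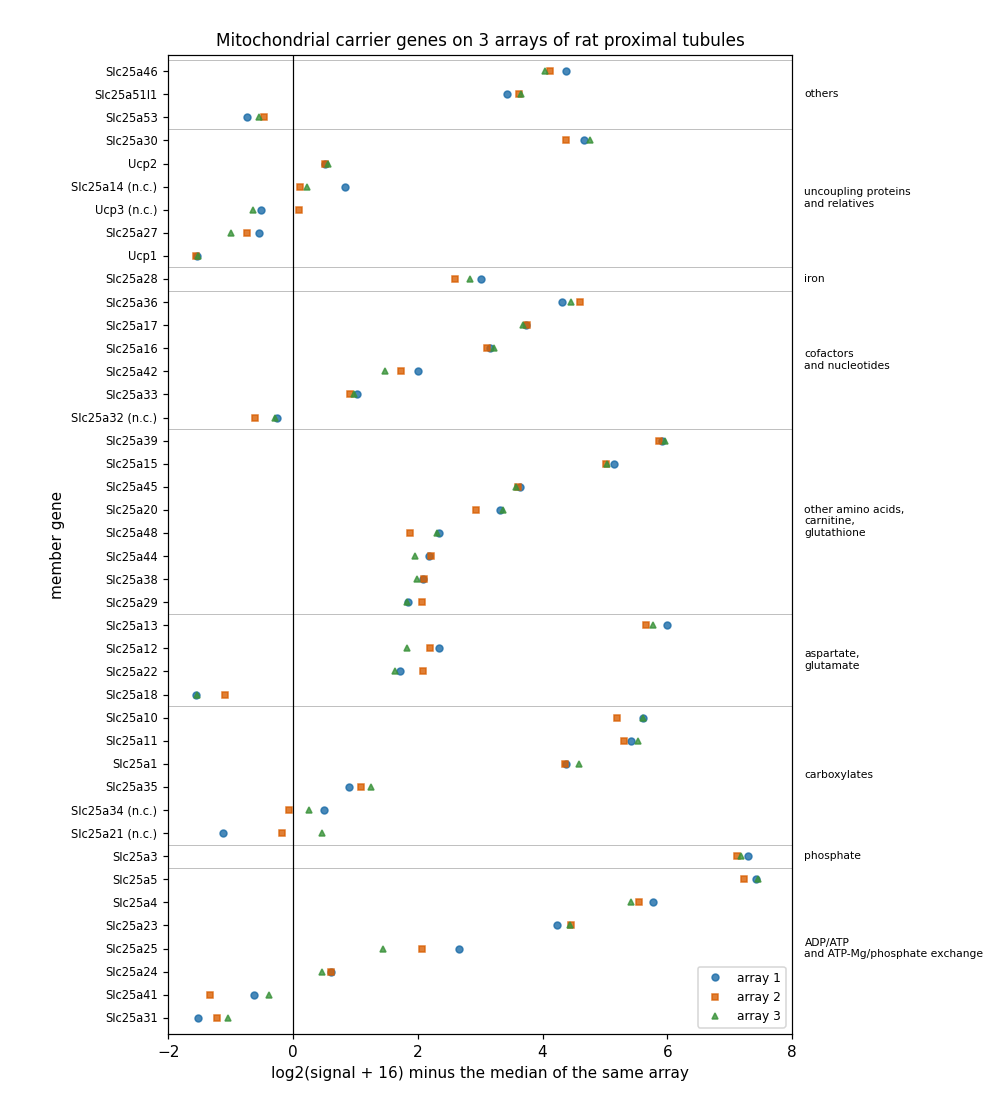
Each row is 1 member gene, grouped by role, and each point is 1 array, as log2(signal + 16) minus the median of that array; the vertical line at 0 is the array median and n.c. marks the 5 genes not called by limma. Slc25a3 and Slc25a5 lie more than 7 log2 units above the line on all 3 arrays, and Ucp1 lies below it with points that nearly coincide. The added 16 draws points of low signal together.

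The DNA before the gene starts was read from RefSeq (GRCr8), which held a window for 37 of the 42 members. The 250 bases before the start are shown for 5 members, with every CG dinucleotide in capitals, because they set carriers of the same substrate on either side of the array median beside each other; these 5 were chosen after the CG counts of the windows were seen. Slc25a5 (chrX:120897366-120897615, + strand) and Slc25a31 (chr2:125623081-125623330, + strand) are ADP/ATP carriers. Slc25a13 (chr4:35328361-35328610, - strand) and Slc25a18 (chr4:155672919-155673168, + strand) both carry glutamate. Ucp1 (chr19:41721422-41721671, - strand) is shown as a member called below whose window held more CG than the median of the members called below.
Slc25a5: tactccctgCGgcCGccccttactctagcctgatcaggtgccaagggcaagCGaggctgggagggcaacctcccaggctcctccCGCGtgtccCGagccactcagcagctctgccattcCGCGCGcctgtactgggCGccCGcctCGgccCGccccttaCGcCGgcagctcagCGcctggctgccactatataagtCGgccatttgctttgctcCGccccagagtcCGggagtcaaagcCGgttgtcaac
Slc25a31: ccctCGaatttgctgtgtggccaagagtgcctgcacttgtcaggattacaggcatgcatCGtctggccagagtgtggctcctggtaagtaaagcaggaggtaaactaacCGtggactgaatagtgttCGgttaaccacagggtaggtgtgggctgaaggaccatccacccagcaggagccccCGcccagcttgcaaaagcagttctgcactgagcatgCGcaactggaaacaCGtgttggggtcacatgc
Slc25a13: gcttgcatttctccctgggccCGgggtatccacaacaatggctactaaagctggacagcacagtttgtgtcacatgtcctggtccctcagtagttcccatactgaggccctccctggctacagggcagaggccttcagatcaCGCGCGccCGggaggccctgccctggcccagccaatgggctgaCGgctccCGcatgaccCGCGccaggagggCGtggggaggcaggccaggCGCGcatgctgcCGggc
Slc25a18: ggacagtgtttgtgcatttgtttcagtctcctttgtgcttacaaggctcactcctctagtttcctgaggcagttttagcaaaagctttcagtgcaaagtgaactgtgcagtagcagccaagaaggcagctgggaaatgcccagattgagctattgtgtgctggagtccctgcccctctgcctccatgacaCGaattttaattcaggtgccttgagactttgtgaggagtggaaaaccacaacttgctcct
Ucp1: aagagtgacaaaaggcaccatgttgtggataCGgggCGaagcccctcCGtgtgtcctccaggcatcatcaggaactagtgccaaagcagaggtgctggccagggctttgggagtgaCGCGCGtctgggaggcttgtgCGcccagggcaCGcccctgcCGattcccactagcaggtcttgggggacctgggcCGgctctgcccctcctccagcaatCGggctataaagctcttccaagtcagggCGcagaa
The windows held 20 CG in Slc25a5 and 7 in Slc25a31, 13 in Slc25a13 and 1 in Slc25a18, and 12 in Ucp1. In both pairs the member above the array median had more CG than the one below it, which the choice of windows does not make a test.

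Over the family, the median number of CG was 17 in the 27 members called above and 7.5 in the 6 called below, with 3.5 in the 4 not called. All named genes gave nearly the same split between above and below, with medians of 17 for 7110 genes called above and 7 for 3274 called below. The 1316 named genes not called had a median of 13, between those groups, whereas the 4 members not called had the lowest median. The numbers overlapped between the groups, from 5 to 36 in members above and from 1 to 13 in members below. The lowest count of a member called above was that of Slc25a48, with 5, and Slc25a15 had 6. Motifs were searched on both strands and set against the 11700 windows of all named genes on the array, with the share of all 33469 windows in the table beside it. The CCAAT box (CCAAT) was in 19 of 37 windows (51.4%), against 35.1% of named genes and 34.0% of all windows. It was in 16 of 27 members called above (59.3%), against 36.6% of named genes called above. Of the 6 members called below it was in 1, against 32.3% of named genes called below. The core bound by ETS factors (CCGGAAG) was in 5 of 37 (13.5%), namely Slc25a3, Slc25a4, Slc25a14, Slc25a20 and Slc25a38, against 12.9% of named genes and 7.27% of all windows. Among members called above it was in 14.8%, against 17.8% of named genes called above. The element of estrogen-related receptors (AAGGTCA) was in 1, Slc25a34 (2.70%), against 2.76% of named genes and 3.99% of all windows. The longer form of the nuclear respiratory factor element was searched first and was in 0 of 37 windows. It was in 7.66% of named genes, 10.5% of named genes called above and 3.75% of all windows. A shorter core of it (GCGCATGC), chosen after that result was seen, was in 2 (5.41%), which were Slc25a13, called above, and Slc25a31, called below. That core was in 3.91% of named genes and 2.20% of all windows, and in 3.70% of members called above against 5.04% of named genes called above. The TATA box (TATAAA) was in 3 of 37 (8.11%), those of Slc25a38, Slc25a48 and Ucp1, against 8.06% of named genes and 12.9% of all windows. In the windows of the members, 0 matches of different motifs overlapped. A match is only a string of letters, and binding was not measured.

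**Figure D2:**
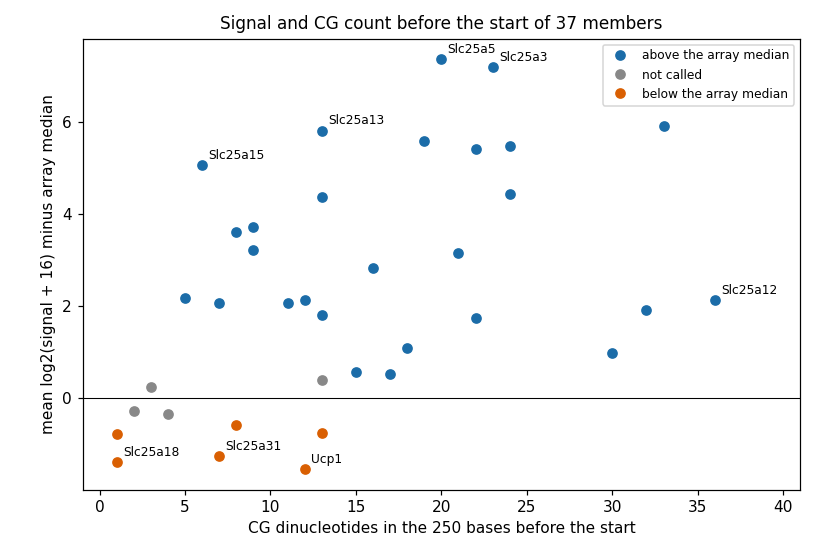
Each point is 1 of the 37 members with a RefSeq window; the horizontal axis is the number of CG dinucleotides in the 250 bases before the start and the vertical axis the mean log2(signal + 16) minus the array median, coloured by the limma call. Members called below have at most 13 CG, but members called above are found from 5 to 36.

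The carriers of adenine nucleotides split by isoform. Slc25a5, the ADP/ATP carrier of dividing and many other cells, gave 9062, 7962 and 8947 on arrays 1, 2 and 3. Slc25a4, the form of heart and muscle, gave 2874, 2493 and 2171. Slc25a31, the form of testis, gave 2.41, 6.91 and 8.64. The first pair lay far above the median of every array and Slc25a31 below it, with differences of 7.37 ± 0.11 (SE) log2 units for Slc25a5, 5.58 ± 0.09 for Slc25a4 and -1.27 ± 0.13 for Slc25a31 (limma, adjusted p = 1.7e-09, 1.8e-09 and 3.8e-05). Testis markers were called below the median in 4 of 4 cases and markers of skeletal and heart muscle in 4 of 5. Of all named genes, 29.4% were called below. The other muscle marker, Tnnt3, was not called. The first pair are close paralogs, and whether their probe sets share target RNA was not tested.

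The ATP-Mg/phosphate carriers, which change the size of the matrix nucleotide pool, were split in the same way. Slc25a23 gave 978, 1155 and 1088 and was above the median by 4.37 ± 0.08 log2 units (limma, adjusted p = 2.3e-09). Its lower probe sets had means of 10.99, called below, and 56.5, called above, so its side depends on the probe set. Slc25a41, the protein-coding gene next to Slc25a23 in the RefSeq table, gave 18.4, 5.28 and 23.0. It was below the median by a difference of -0.78 ± 0.20 (limma, adjusted p = 0.0082). The call of Slc25a41 ended without array 2, at an adjusted p of 0.061. Slc25a24 stood just above the median on each array, at 65.3, 65.5 and 54.4 (difference 0.56 ± 0.13, limma, adjusted p = 0.0050). Slc25a25 gave 321, 209 and 122, the widest spread of the carriers above the median level, and is described with the differences between arrays.

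Slc25a3, which brings in the phosphate for ATP synthesis, gave 8309, 7414 and 7387. It was above the median by 7.20 ± 0.11 log2 units (limma, adjusted p = 1.7e-09), and its range over the arrays was 0.17. With Slc25a5 it supplies the substrates of ATP synthase, and both were called above.

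The carboxylate carriers feed and drain the TCA cycle. Slc25a10, the dicarboxylate carrier, gave 2569, 1946 and 2467. Slc25a11, which exchanges oxoglutarate for malate, gave 2258, 2106 and 2324. Slc25a1, the citrate carrier, gave 1091, 1077 and 1211. All 3 were lowest on array 2 after centring and lay above the median on every array, by 5.47 ± 0.11, 5.42 ± 0.08 and 4.44 ± 0.08 log2 units (limma, adjusted p = 2.8e-09, 1.7e-09 and 2.2e-09). Slc25a35, whose substrate is not settled, was called above at 83.0, 97.9 and 105 (difference 1.08 ± 0.12, limma, adjusted p = 7.6e-05). Slc25a21, the oxodicarboxylate carrier of lysine and tryptophan breakdown, gave 8.41, 31.5 and 54.2, on both sides of the array median, and was not called (difference -0.28 ± 0.29, limma, adjusted p = 0.39). Slc25a34 gave 59.1, 35.1 and 44.8 and was not called either (0.23 ± 0.17, limma, adjusted p = 0.23). Of the 6 genes of this group, 4 (66.7%) were therefore called above and 0 below, and 2 not called. The share above was near the 59.0% of all named genes.

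The malate-aspartate shuttle needs an aspartate/glutamate carrier beside Slc25a11. Slc25a13 (citrin), the form of liver and kidney, gave 3381, 2693 and 2768, and Slc25a12 (aralar), the form of brain and muscle, gave 252, 228 and 165. Both lay above the median of every array, by 5.81 ± 0.10 and 2.12 ± 0.11 log2 units (limma, adjusted p = 1.8e-09 and 8.1e-07). The shuttle enzymes Got1 (759 ± 89.2), Got2 (4238 ± 321), Mdh1 (7865 ± 463) and Mdh2 (2798 ± 129) were called above as well. The carriers that import glutamate with a proton went to opposite sides. Slc25a22 gave 159, 209 and 143 (1.81 ± 0.11, limma, adjusted p = 2.0e-06), whereas Slc25a18, best known from brain glia, gave 2.17, 9.06 and 1.498 (-1.39 ± 0.12, adjusted p = 1.7e-05). Markers of neurons and glia were called below the median in 4 of 4 cases, beside 29.4% of all named genes.

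Carriers of other amino acids, carnitine and glutathione were called above in 8 of 8 cases, beside 59.0% of all named genes. Slc25a39, a glutathione importer, gave 3208, 3094 and 3152, a range of 0.10 log2 units. Slc25a15, the ornithine carrier known from the urea cycle, gave 1875, 1713 and 1646, above the median by 5.07 ± 0.08 (limma, adjusted p = 1.7e-09). Of the urea cycle enzymes in the lists, Cps1 gave 7.97, 18.0 and 1.499 and Otc gave 1.70, 2.11 and 0.977, both called below. Arg1 gave 61.1, 29.5 and 42.9 and was not called, and other enzymes of the cycle were not read. Oat, the mitochondrial aminotransferase that uses ornithine, gave 1706, 1784 and 1900 and was called above. Slc25a20, the carnitine/acylcarnitine carrier of fatty acid oxidation, gave 515, 393 and 508 (3.21 ± 0.10, limma, adjusted p = 3.4e-08), and the carnitine acyltransferase genes on either side of it, Cpt1a (1503 ± 317) and Cpt2 (325 ± 33.5), were called above.

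The other 5 genes of this group ranged over the arrays by 0.05 log2 units in Slc25a45 to 0.46 in Slc25a48. Slc25a45 gave 645, 635 and 593, the narrowest range of the family above the median level. Slc25a44, a carrier of branched-chain amino acids, gave 226, 232 and 182, and Slc25a38, which carries glycine for heme synthesis, gave 209, 213 and 187. Slc25a29, a carrier of basic amino acids, gave 175, 208 and 164, and Slc25a48, linked to choline import, gave 252, 180 and 235. None of these 4 overlapped the array median on any array. Their differences from it ran from 1.91 for Slc25a29 to 2.17 for Slc25a48.

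Among the carriers of cofactors and nucleotides, 5 of 6 were called above, beside 59.0% of all named genes, and 1 was not called. Slc25a36, a pyrimidine nucleotide carrier, gave 1039, 1281 and 1098, and Slc25a33, the other pyrimidine nucleotide carrier, gave 91.7, 85.002 and 84.4. Slc25a17, a carrier of coenzyme A and related cofactors in the peroxisome, gave 692, 702 and 639. Slc25a16 gave 458, 443 and 456, and Slc25a42, which imports coenzyme A, gave 198, 161 and 126. Each of these 5 lay above the median of all arrays, with differences from 0.97 ± 0.11 for Slc25a33 to 4.46 ± 0.08 for Slc25a36 (limma, adjusted p = 9.9e-05 and 2.4e-09). Slc25a32, the folate and FAD carrier, lay below the median on every array at 28.6, 18.8 and 25.8 but was not called (-0.38 ± 0.17, limma, adjusted p = 0.062). Its second probe set gave 11.6, 6.67 and 3.78 and was called below (-1.18 ± 0.13, limma, adjusted p = 5.9e-05). Slc25a28, a mitoferrin that imports iron for heme and iron-sulfur clusters, gave 411, 308 and 350 and was called above (2.82 ± 0.10, limma, adjusted p = 5.5e-08).

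Of the 6 uncoupling proteins and their relatives, 2 were called above and 2 below, and 2 were not called. Among all named genes, 59.0% were called above and 29.4% below. Slc25a30, named kidney mitochondrial carrier protein, gave 1337, 1095 and 1366 and was above the median by 4.60 ± 0.09 log2 units (limma, adjusted p = 3.4e-09). Ucp1, which makes heat in brown fat, gave 2.23, 2.08 and 1.63, below the median by a difference of -1.55 ± 0.08 (adjusted p = 7.4e-07). Brown fat markers were called below the median in 5 of 5 cases, beside 29.4% of all named genes. Ucp2, found in many tissues, gave 59.4, 60.5 and 59.2 and was just above the line (0.53 ± 0.13, limma, adjusted p = 0.0068). Ucp3, the muscle form and the protein-coding gene next to Ucp2, gave 21.2, 41.2 and 16.7 and was not called (-0.35 ± 0.20, limma, adjusted p = 0.13). Without array 2, on which it was highest, Ucp3 was called below (limma, adjusted p = 0.034). The second probe set of Ucp3 gave 16.9, 8.55 and 7.27 and was called below (-0.98 ± 0.15, limma, adjusted p = 0.00041). Of the forms best known from brain, Slc25a27 gave 20.2, 15.9 and 9.55 and was called below (-0.76 ± 0.16, adjusted p = 0.0023). Slc25a14 gave 78.3, 41.5 and 43.7 and was not called (0.39 ± 0.18, limma, adjusted p = 0.080), although it was above the median on each array.

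The last 3 members have other places or no settled role. Slc25a46, a protein of the outer membrane that shapes mitochondria, gave 1090, 909 and 821 (4.18 ± 0.09, limma, adjusted p = 4.0e-09). Slc25a51l1, annotated as a gene like the NAD carrier Slc25a51, gave 555, 640 and 624 (3.57 ± 0.08, adjusted p = 4.9e-09). Slc25a53 gave 15.9999, 22.8 and 18.8 and was called below (-0.58 ± 0.16, limma, adjusted p = 0.0091), a call that ended without array 1 (adjusted p = 0.060).

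Genes that work with the carriers were taken as lists. The lists were chosen with earlier results of these data known, so their counts are not a test. Of 26 listed genes for other transport across the mitochondrial membranes, 22 were measured and 22 of 22 were called above the array median, against 59.0% of all genes. They included the pyruvate carrier subunits Mpc1 (5497 ± 492) and Mpc2 (4247 ± 365), the outer membrane channel Vdac1 (4458 ± 214) and Mtch2 (2787 ± 195), a distant relative of the carriers in the outer membrane. Of 30 enzymes that make or use carried substrates, 27 were measured, 24 were called above and 3 below, namely Arg2, Ckmt2 and Cps1. The median difference from the array median was 4.27 log2 units in the first list, 4.63 in the second and 2.12 in the carrier family.

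Several members were read by more than 1 probe set, which gave a second look at 13 genes. In 8 of 13, all probe sets had the same call, beside 50.2% of all 4525 genes with several probe sets. In 2 genes a probe set was called above and another below. Slc25a15 had 6 probe sets, of which 5 gave means from 433 to 1744 and were called above, while the sixth gave 1.97, 1.95 and 3.09 and was called below. Slc25a23 had means of 10.99, 56.5 and 1074 over its 3 probe sets, the lowest called below and the others above. For Slc25a39, the second probe set gave 30.6, 23.5 and 22.0 and was not called. For Slc25a32 and Ucp3, the second probe set was called below and the one used for the gene was not called. The 3 probe sets of Slc25a27 were all called below. The level of a gene with such disagreement depends on the probe set, and which one reads the main transcript was not tested.

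**Figure D3:**
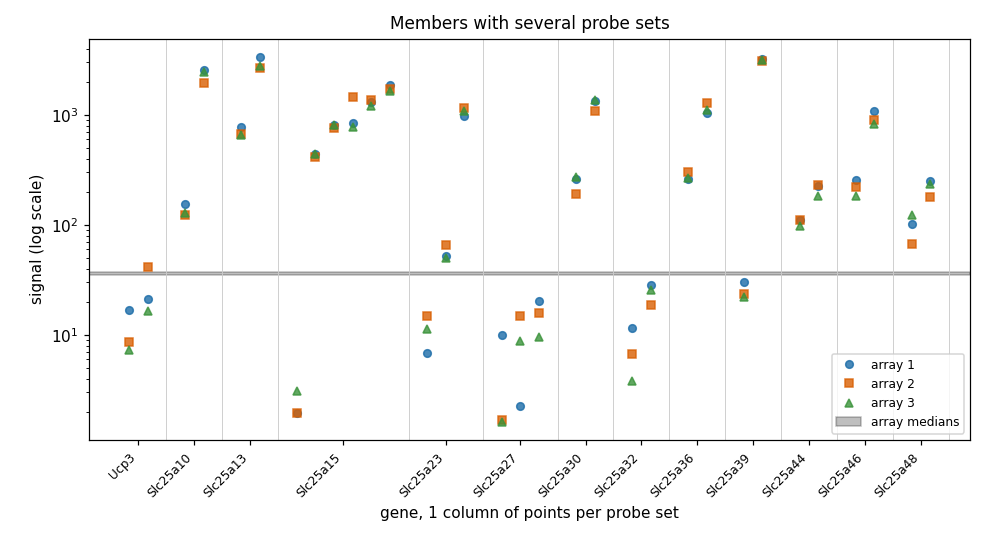
The 13 members with several probe sets are shown on a log scale of signal, with 1 column of points per probe set and 1 point per array; the grey band spans the 3 array medians. The lowest probe set of Slc25a15 lies near 2 on all arrays, while the means of its other 5 run from 433 to 1744.

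Where 2 or more probe sets of a gene were called above, they mostly had the same lowest and the same highest array. The same array was lowest in all of them for 8 of 9 genes, and the same array was highest for 6 of 9. Over all 1929 such genes these shares were 46.0% and 49.0%. The shared lowest array was array 2 in Slc25a10, Slc25a13, Slc25a30 and Slc25a48. Array 2 was also lowest for 56.7% of all genes above the median level of named genes. Agreement was not read under another scaling between arrays. Both probe sets of Slc25a30 were lowest on array 2, at 1095 and 191, against 1337 and 261 on array 1 and 1366 and 273 on array 3. Both of Slc25a46 were highest on array 1, at 1090 and 258, and lowest on array 3, at 821 and 184. Both of Slc25a36 were highest on array 2, at 1281 and 302. Slc25a15 was the exception to the shared lowest array. Its probe set with 842, 1441 and 779 ranged by 0.80 log2 units, and its other 5 probe sets ranged by 0.12 to 0.17.

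The 3 preparations were alike for most carriers. The median level of named genes lay at 1.09 log2 units above the array median, and 27 members were above it. Their median SD over the arrays was 0.14 log2 units, against 0.15 for all 7108 genes above that level. A range of 1 log2 unit (2-fold) or more was reached by 1 of 27 members, beside 1.39% of all such genes. That member was Slc25a25, a calcium-responsive ATP-Mg/phosphate carrier, with 321 on array 1, 209 on array 2 and 122 on array 3, a range of 1.22 log2 units. Its range fell under 1 log2 unit without array 1 (0.63) and without array 3 (0.59), so the count rests on those arrays. It was read by 1 probe set only. Over the same arrays the endothelial markers summed to 461, 595 and 875. The red blood cell markers summed to 185, 90.0 and 102, mostly from Hbb at 173, 83.2 and 74.4. Ahsp (0.969, 2.22 and 15.8) and Alas2 (11.4, 4.57 and 11.8) were called below and were highest on array 3. The part of either cell type in the difference of Slc25a25 was not tested. The next widest ranges were those of Slc25a42 (0.53), Slc25a12 (0.50) and Slc25a48 (0.46). Below that level, Slc25a21 ranged by 1.59.

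Relative to its own mean, the median member lay at 0.07 log2 units on array 1, -0.05 on array 2 and -0.01 on array 3, beside 0.07, -0.08 and 0.01 for all genes above the same level. Under quantile normalization the members' values became -0.02, 0.07 and -0.05, so their direction depends on the scaling between arrays. Array 2 held the highest value of 7 of 27 members (25.9%), against 12.5% of all such genes. These 7 were Slc25a17, Slc25a22, Slc25a23, Slc25a29, Slc25a36, Slc25a38 and Slc25a44. Array 1 held the highest value of 11 (40.7%, against 53.1%) and array 3 of 9 (33.3%, against 34.5%). Array 3 held the lowest value of 11 members (40.7%, against 27.3%), among them Slc25a4, Slc25a12, Slc25a25, Slc25a42 and Slc25a46, which were all highest on array 1. Each array is a single preparation, so these counts describe the arrays and were not tested.

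**Figure D4:**
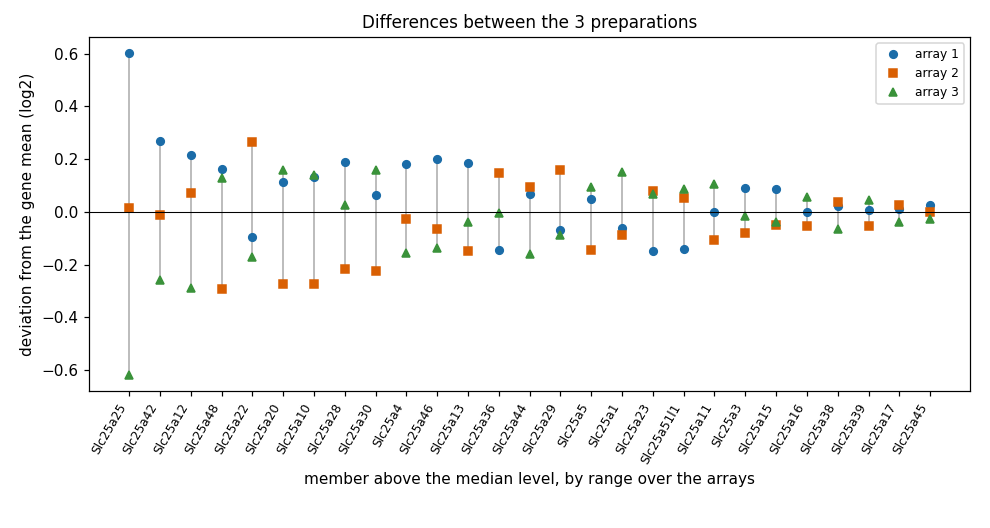
For the 27 members above the median level, in order of range, points show the deviation of each array from the mean of that gene in log2 units, and grey lines join the lowest and highest. Slc25a25 spans 1.22 log2 units, and every other member spans 0.53 or less.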

How the data were processed

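RNA of 3 rat proximal tubule preparations was measured on 1 Affymetrix array each, per the labels' protocols. The authors deposited linear signal intensities per probe set; the summarisation software and the scaling between arrays are not given in the sources used here. Of the probe sets, 57 were controls and were left out, 20826 named 1 gene, 436 several and 9780 none, per the platform annotation. All 42 members matched RefSeq (GRCr8) identifiers, 9 further listed family symbols were not analysed here, and 2 probe sets of the family with several gene entries were left out. After taking log2(signal + 16) and centring each array on its median, each of 31042 probe sets was tested against 0 with limma 3.58.1 (eBayes with a mean-variance trend) in R 4.3.3, with Benjamini-Hochberg adjustment at 0.05; the procedure was tested on simulated data. A gene took its probe set of highest mean signal, also in the counts over all genes. Detection was not assessed, and the number of arrays limits the precision. For the 1 member with 2 RefSeq windows the first listed was used. Every member could be named, and companion lists followed known function. Members and lists were chosen with earlier results of these data known. Alternatives were averaged probe sets, probe sets without a suffix, pseudocounts of 1 and 64, quantile normalization, no centring, lines at the 25th and 75th percentiles, filters on low values, no variance trend, and leaving out each array.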

Additional observations from a re-analysis of the deposited data

How the results depend on the processing

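Apart from the line itself, 406 of 416 gene values kept their side and their call under the other alternatives. The count of members called above stayed at 31 to 32 over them, and was 36 with the 25th percentile as the line and 23 with the 75th. The count called below was 2 and 15 with those lines, 4 of 39 members without the lowest 20% of probe sets, 8 with averaged probe sets, and 5 to 6 when 1 array was left out. With the 75th percentile as the line, these members changed sides and lay below it: Slc25a14 (-1.45 log2 units), Slc25a22 (-0.026), Slc25a24 (-1.27), Slc25a33 (-0.86), Slc25a34 (-1.61), Slc25a35 (-0.76), Slc25a42 (-0.10) and Ucp2 (-1.31). With the 25th percentile, these changed sides and lay above it: Slc25a21 (0.75), Slc25a27 (0.26), Slc25a32 (0.64), Slc25a41 (0.25), Slc25a53 (0.45) and Ucp3 (0.67). A lower or higher line moves every difference by construction. Slc25a21 also changed sign when 1 array was left out, from -0.65 without array 3 to 0.15 without array 1. Slc25a32 was called below with averaged probe sets, a pseudocount of 64, no variance trend and without the lowest 20% of probe sets, and Slc25a14 was called above in the last of these. The family's median percentile was 68.9 with averaged probe sets and 61.5 without the lowest 20% of genes, where fewer genes are ranked, and 64.9 to 67.1 when 1 array was left out. Members with a 2-fold range numbered 2 with no filter on level, which adds Slc25a21, and 0 to 1 when 1 array was left out. Under quantile normalization the median deviations of members on arrays 1, 2 and 3 were -0.02, 0.07 and -0.05. No paired analysis was possible because there is 1 group.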
